A study of Mus musculus with 6 samples.

Results

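The expression of 10 genes of interleukin-6 (IL-6) and interleukin-1 (IL-1) receptor signalling was followed in mouse liver: the IL-6 family receptors Il6ra, Il6st, Osmr and Lifr, the feedback inhibitors Socs1 and Socs3, the IL-1 receptor chains Il1r1 and Il1rap, the receptor antagonist Il1rn and the ligand Il1b. They were chosen by name, as 10 of the 56350 genes in the deposited count table, and all 10 were found there. The series compared liver RNA of 3 wild-type (WT) samples with 3 samples of a hepatocyte-specific Atg14 knockout (Atg14 HepKO, HepKO from here on) by bulk sequencing of polyA RNA. The product of Atg14 directs a phosphatidylinositol kinase to the sites where autophagosomes form. The sources used here do not give age, sex, strain, diet, the Cre driver or whether each library is from its own mouse. The p-values therefore refer only to the spread among these libraries, which may be technical.

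IL-6 binds IL-6 receptor alpha, encoded by Il6ra, and the pair then engages the shared signal transducer gp130, encoded by Il6st. Leukaemia inhibitory factor and oncostatin M use gp130 too, with the receptor chains encoded by Lifr and Osmr. Receptor-bound JAK kinases then activate the transcription factor STAT3, which in hepatocytes drives acute phase genes and also Socs3, whose product shuts the receptor off again. IL-1 alpha and IL-1 beta bind the receptor encoded by Il1r1, which signals through MyD88 and IRAK kinases to NF-kB only when joined by the accessory chain encoded by Il1rap. The antagonist encoded by Il1rn occupies the same receptor without recruiting that chain. In liver, IL-1 beta is made mainly by myeloid cells, and hepatocytes respond to both cytokines.

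Libraries held 33145684 to 48951937 reads assigned to genes, and levels are given as CPM, read counts brought to a common library total after scaling by the trimmed mean of M-values (TMM). All 8 hepatocyte markers examined were expressed, with a summed level of 112043 CPM or more in each WT library and 44139 CPM or more in each HepKO library. Differences were tested with the edgeR quasi-likelihood test and called where the p adjusted by Benjamini-Hochberg over 16051 genes (FDR) was under 0.05, and a log2 fold change (log2FC) is HepKO over WT with its standard error. Values after ± on CPM are SD over 3 libraries. Atg14 itself had between 20.9 and 22.2 CPM in the WT libraries and 5.66, 8.44 and 7.95 CPM in HepKO replicates 1 to 3 (log2FC -1.54 ± 0.16, FDR 4.69e-04, edgeR). With library totals in place of TMM the median log2FC of all tested genes moved from 0.01 to 0.52 and the calls from 3125 higher and 3006 lower to 7431 higher and 939 lower, so the direction of a small change rests on the scaling.

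Of the 10 genes, 3 rose in HepKO (Il1rn, Osmr and Socs3), 3 fell (Il6ra, Il1rap and Il1r1), 3 were tested without a call (Il6st, Lifr and Il1b), and Socs1 had too few counts to enter the test with all libraries. Over all tested genes 19.5% were called higher, 18.7% lower and 38.2% in either direction, and counts of 3 among 10 genes were not read as more than that background. The WT and HepKO libraries did not overlap for 4 of the 9 tested genes in the higher direction and for 3 in the lower direction, where the same held for 27.1% and 26.4% of all tested genes, 53.5% in all. The ligand-binding chains Il6ra and Il1r1 and the accessory chain Il1rap were lower, while the antagonist, the feedback inhibitor Socs3 and the oncostatin M receptor were higher, and Il6st and Lifr had overlapping TMM-scaled levels. In bulk tissue, fewer cells of a type and less RNA per cell cannot be told apart.

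**Figure D1:**
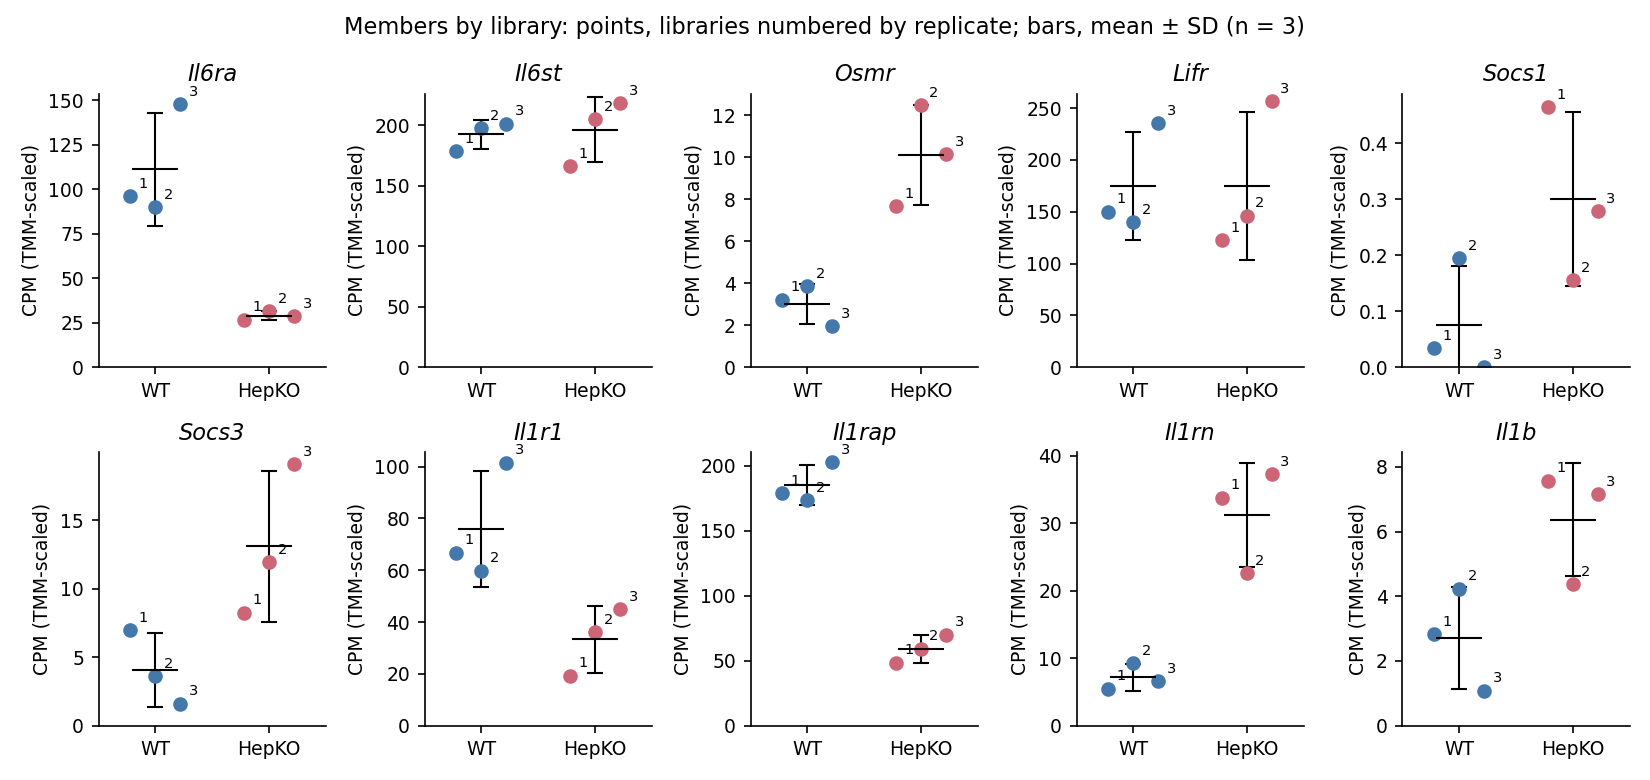
TMM-scaled CPM of the 10 genes in each library (y axis, linear from 0, 1 panel a gene), with points numbered by replicate and bars for the mean ± SD of 3 libraries. Every HepKO point lies below every WT point for Il6ra, Il1r1 and Il1rap, and above every WT point for Osmr, Socs3, Il1rn and Il1b.

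The start regions of the genes were read from RefSeq sequences of GRCm38.p6, the assembly of mm10, in which all 10 genes matched with 14 start sites. The 250 bases upstream of each start were searched for the STAT motif TTCNNNGAA, the C/EBP motif TTGCNNAA, the AP-1 motif TGANTCA and the NF-kB motif, on both strands. A STAT match stood in 1 of the 14 windows, that of Socs3, against 7.02% of 32851 windows of all genes. An AP-1 match, found in 6.75% of all windows, stood before the upstream start of Il1rn. C/EBP and NF-kB matches (9.56% and 7.25% of all windows) stood only before the starts of Il1r1, 1 each, and 10 of the 14 windows held no match. The windows of Socs3, Il1rn and Osmr are shown because these 3 genes rose, and that of Il6ra because this receptor had the lowest log2FC. Those of Osmr and Il6ra hold no match. Capitals mark the motif matches, 154 to 146 bases upstream of the start for Socs3 and 141 to 135 for Il1rn, and a match is a description of letters and not a bound site.
Socs3, chr11:117969367-117969616, minus strand: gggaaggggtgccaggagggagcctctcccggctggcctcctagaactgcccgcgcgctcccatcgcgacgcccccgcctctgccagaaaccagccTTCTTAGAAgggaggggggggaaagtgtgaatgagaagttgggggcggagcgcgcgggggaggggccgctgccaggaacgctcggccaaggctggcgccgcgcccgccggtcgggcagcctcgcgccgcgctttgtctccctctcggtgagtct
Il1rn, upstream start, chr2:24336610-24336859, plus strand: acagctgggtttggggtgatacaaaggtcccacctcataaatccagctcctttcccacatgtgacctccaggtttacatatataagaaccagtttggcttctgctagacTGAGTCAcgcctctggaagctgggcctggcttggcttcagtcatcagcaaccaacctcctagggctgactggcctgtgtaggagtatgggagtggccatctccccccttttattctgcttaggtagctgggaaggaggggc
Il1rn, downstream start, chr2:24345041-24345290, plus strand: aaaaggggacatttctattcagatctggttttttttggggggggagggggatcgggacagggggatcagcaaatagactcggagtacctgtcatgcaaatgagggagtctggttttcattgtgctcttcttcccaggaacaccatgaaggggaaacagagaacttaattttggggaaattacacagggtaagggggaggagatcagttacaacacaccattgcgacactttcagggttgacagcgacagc
Osmr, chr15:6874314-6874563, minus strand: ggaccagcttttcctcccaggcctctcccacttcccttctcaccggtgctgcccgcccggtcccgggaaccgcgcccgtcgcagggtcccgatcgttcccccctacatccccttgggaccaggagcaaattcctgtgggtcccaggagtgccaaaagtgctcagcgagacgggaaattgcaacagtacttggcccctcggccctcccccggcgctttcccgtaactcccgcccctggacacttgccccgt
Il6ra, chr3:89913197-89913446, minus strand: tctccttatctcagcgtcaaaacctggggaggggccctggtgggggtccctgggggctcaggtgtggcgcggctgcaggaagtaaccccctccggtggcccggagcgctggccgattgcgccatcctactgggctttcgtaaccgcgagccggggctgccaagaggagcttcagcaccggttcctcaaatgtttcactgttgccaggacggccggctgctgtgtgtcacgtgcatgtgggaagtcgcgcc
Transcripts from the upstream start of Il1rn encode intracellular forms of the antagonist and those from the downstream starts the secreted form. The gene counts cover both, so the rise of Il1rn described here was not assigned to either start.

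Among the IL-6 family receptors, the IL-6 binding chain fell and the oncostatin M receptor chain rose, while gp130 and the leukaemia inhibitory factor receptor were not called. Il6ra (ENSMUSG00000027947.11) lies on chromosome 3 from 89864059 to 89913196 on the minus strand (GRCm38). It had 96.1, 89.8 and 148 CPM in WT replicates 1 to 3 and 26.6, 31.6 and 28.8 CPM in HepKO replicates 1 to 3. The 3 HepKO libraries lay close together and all below the lowest WT library, while WT replicate 3 stood above the other WT libraries. The fall was 3.84-fold (111 ± 31.7 to 29.0 ± 2.50 CPM, log2FC -1.94 ± 0.19, FDR 3.78e-04, edgeR). It was called under all 14 alternatives, with log2FC from -2.05 to -1.42.

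Il6st (ENSMUSG00000021756.12, chromosome 13, 112464070 to 112510086, plus strand) had 179, 197 and 201 CPM in WT and 166, 205 and 218 CPM in HepKO. The range of the 3 HepKO libraries was wider than that of the 3 WT libraries and enclosed it, with no call (log2FC 0.03 ± 0.12, FDR 0.875, edgeR). Under library totals Il6st was called higher with a log2FC of 0.54 (adjusted p = 0.00879, edgeR, against 0.348 to 0.974 with each library left out), next to the 0.52 of the median gene under that scaling. Lifr (ENSMUSG00000054263.12, chromosome 15, 7090614 to 7197489, plus strand), the leukaemia inhibitory factor receptor, had 150, 140 and 235 CPM in WT and 123, 146 and 256 CPM in HepKO. In both groups 1 library, replicate 3, stood well above the others, and the groups overlapped (log2FC 0.00 ± 0.30, FDR 1, edgeR). With this standard error, a change of Lifr of modest size in either direction was not detectable.

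Osmr (ENSMUSG00000022146.12, chromosome 15, 6813577 to 6874969, minus strand), the oncostatin M receptor chain, was the scarce receptor of the family in WT and rose. It had 3.21, 3.84 and 1.96 CPM in WT replicates 1 to 3 and 7.67, 12.5 and 10.2 CPM in HepKO replicates 1 to 3. The lowest HepKO library lay above the highest WT library. The rise was 3.36-fold (log2FC 1.75 ± 0.29, FDR 0.00273, edgeR), and all 14 alternatives called it, with log2FC from 1.53 to 2.25. Stellate cells also express Osmr: of 8 stellate cell markers, 2 (Col1a1 and Pdgfrb) rose and 6 were not called, with summed levels of 239 to 364 CPM in WT and 424 to 469 CPM in HepKO, none of them at 0. Under library totals 6 of the 8 stellate cell markers were called higher and 0 lower. Divided by the summed length-scaled level of those markers, Osmr was 0.00442, 0.00592 and 0.00417 in WT and 0.00818, 0.0145 and 0.0117 in HepKO (p = 0.1, the smallest possible, 2-sided exact permutation test). The part of stellate and other cells in the result was not tested.

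Ratios within a library do not depend on the scaling between libraries. Per length (RPKM, the CPM divided by the kilobases of merged exons), the ratio of Il6ra to Il6st was 0.691, 0.585 and 0.943 in WT and 0.205, 0.198 and 0.170 in HepKO. It was 3.87-fold lower in HepKO, with no overlap. The ratio of Osmr to Il6ra was 0.0238, 0.0305 and 0.00947 in WT and 0.206, 0.282 and 0.252 in HepKO, 11.6-fold higher. Each comparison gave p = 0.1 in a 2-sided exact permutation test, the smallest p that 3 libraries against 3 allow, so neither ratio can pass the threshold in this design. The ratios were chosen after the members' values were seen.

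**Figure D2:**
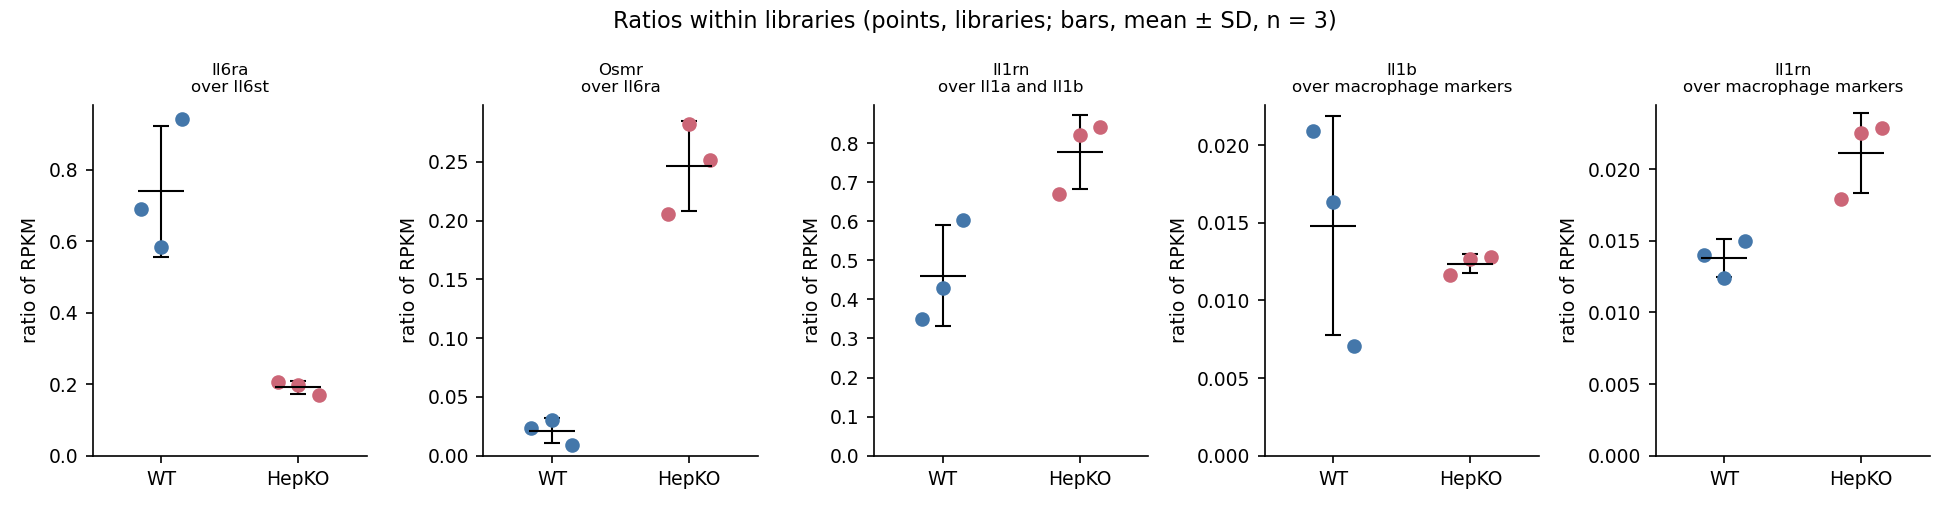
Ratios of length-scaled levels (RPKM) within each library (y axes, linear from 0), with points for libraries and bars for the mean ± SD of 3 libraries per group. The ratios of Il6ra to Il6st and of Osmr to Il6ra separate the groups, from 0.585 or more to 0.205 or less and from 0.0305 or less to 0.206 or more, while the ratio of Il1b to the macrophage markers overlaps.

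Of the feedback inhibitors, Socs3 rose and Socs1 stayed near the detection limit. Socs3 (ENSMUSG00000053113.3, chromosome 11, 117966079 to 117970047, minus strand), the inhibitor of gp130 signalling, had 6.99, 3.62 and 1.61 CPM in WT and 8.24, 11.9 and 19.1 CPM in HepKO. The groups did not overlap, but WT replicate 1 and HepKO replicate 1 lay near each other and both groups were widely spread. The rise was 3.22-fold (log2FC 1.69 ± 0.51, FDR 0.0316, edgeR). The call ended without WT replicate 2 (adjusted p = 0.0780), WT replicate 3 (0.0530), HepKO replicate 2 (0.0660) or HepKO replicate 3 (0.108), and without WT replicate 1 the log2FC was 2.31. With the replicate number as a block it ended as well (adjusted p = 0.0818), and over the 14 alternatives the adjusted p of Socs3 ran from 3.93e-05 to 0.108.

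Socs1 (ENSMUSG00000038037.5, chromosome 16, 10782240 to 10785536, minus strand), which inhibits JAK kinases directly, had 1, 7 and 0 counts in WT and 27, 7 and 11 counts in HepKO. The groups overlapped, since WT replicate 2 and HepKO replicate 2 had the same count. The low-count filter removed it with all 6 libraries, and without a filter its log2FC was 1.90 (adjusted p = 0.304, edgeR). With 1 library left out it entered the test in 4 of the 6 cases, with log2FC from 1.35 to 4.04 and adjusted p from 0.0564 to 0.367, the highest log2FC without WT replicate 2. Over the groups its 8 WT and 45 HepKO counts gave a TMM-scaled ratio of 3.94 (95% counting interval 1.84 to 9.68, which covers counting error only).

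Both chains of the IL-1 receptor fell. Il1r1 (ENSMUSG00000026072.12, chromosome 1, 40225080 to 40317257, plus strand), the signalling receptor, had 66.7, 59.9 and 102 CPM in WT and 19.4, 36.0 and 44.9 CPM in HepKO. The groups did not overlap, with WT replicate 3 high and HepKO replicate 1 low within their groups. The fall was 2.28-fold (log2FC -1.19 ± 0.31, FDR 0.0194, edgeR). The call ended without WT replicate 3 (log2FC -0.90, adjusted p = 0.0710) or HepKO replicate 2 (adjusted p = 0.0507), and under library totals (log2FC -0.67, adjusted p = 0.100). Over the 14 alternatives its adjusted p ran from 4.09e-06 to 0.100.

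Il1rap (ENSMUSG00000022514.14, chromosome 16, 26581704 to 26730117, plus strand), the accessory chain, had 179, 174 and 203 CPM in WT and 48.4, 59.2 and 70.1 CPM in HepKO. The highest HepKO library lay far below the lowest WT library. Its fall was 3.13-fold (log2FC -1.65 ± 0.15, FDR 2.60e-04, edgeR), and it was called under all 14 alternatives, with log2FC from -1.79 to -1.13. The antisense gene Gm20319, at 26714446 to 26755502 of the same chromosome (minus strand), shares 552 of its 1125 exonic bases with exons of Il1rap, which is 4.86% of the exonic length of Il1rap. Gm20319 averaged 145 ± 17.2 CPM over the WT libraries against 37.9 ± 12.0 CPM over the HepKO libraries and fell too (log2FC -1.94 ± 0.23, FDR 6.42e-04, edgeR). No source used here gives the strand setting of the counting, so how reads of the shared bases were counted is not known. Gm20319 was examined because of this overlap and was not on any list.

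Among the 9 tested genes, the antagonist Il1rn had the highest log2FC. Il1rn (ENSMUSG00000026981.15, chromosome 2, 24336853 to 24351494, plus strand) had 5.50, 9.30 and 6.64 CPM in WT and 33.8, 22.6 and 37.3 CPM in HepKO. Even the lowest HepKO library stood far above the highest WT library. The rise was 4.36-fold (7.15 ± 1.95 to 31.2 ± 7.68 CPM, log2FC 2.12 ± 0.25, FDR 6.44e-04, edgeR), called under all 14 alternatives with log2FC from 1.96 to 2.63.

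Il1b (ENSMUSG00000027398.13, chromosome 2, 129364570 to 129371139, minus strand), the ligand, had 2.84, 4.23 and 1.08 CPM in WT and 7.57, 4.37 and 7.16 CPM in HepKO. All HepKO libraries lay above all WT libraries, though HepKO replicate 2 only just exceeded WT replicate 2. The log2FC was 1.23 ± 0.45 without a call (FDR 0.0658, edgeR). A call was made by DESeq2 (adjusted p = 0.0147), by limma-voom (0.0425), with no low-count filter (0.00436, edgeR), under library totals (0.0161, edgeR) and without WT replicate 2 (log2FC 1.74, 0.0256, edgeR). Over the 14 alternatives its adjusted p ran from 0.00436 to 0.155. Il1a, the other agonist, had 2.67, 3.37 and 2.81 CPM in WT and 10.2, 5.30 and 8.38 CPM in HepKO and rose (log2FC 1.43 ± 0.27, FDR 0.00464, edgeR).

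Whether the ratio of antagonist to agonist overlapped between the groups depended on the agonists counted. Per length, the ratio of Il1rn to the sum of Il1a and Il1b was 0.350, 0.428 and 0.603 in WT and 0.669, 0.819 and 0.842 in HepKO, 1.69-fold higher with no overlap (p = 0.1, the smallest possible, 2-sided exact permutation test). The ratio of Il1rn to Il1b alone overlapped between groups, with 0.669, 0.757 and 2.11 in WT and 1.54, 1.78 and 1.79 in HepKO (p = 0.4, exact permutation test). The ratio of Il1rap to Il1r1 overlapped as well, with 1.12 to 1.62 in WT and 0.875 to 1.40 in HepKO (p = 0.2, exact permutation test).

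Markers of myeloid cells, which are among the cells that make IL-1 beta and the antagonist, were also higher in HepKO. Of 8 Kupffer cell and macrophage markers, 7 rose and 1 (Timd4) was not called, with a median log2FC of 1.59 against 0.01 for all tested genes, and their summed level was 157 to 309 CPM in WT and 407 to 741 CPM in HepKO. Of 6 monocyte markers, 5 rose, with summed levels of 40.9 to 82.0 CPM in WT and 144 to 227 CPM in HepKO. Among those that rose, Ly6c2 (18, 11 and 6 counts in WT) and Itgam (5, 31 and 25) passed the low-count filter only with their HepKO counts. The count of 5 therefore follows in part from the filter. Of 7 neutrophil markers, 3 had enough counts to be tested and rose, and the summed level was 1.73 to 4.79 CPM in WT and 7.06 to 21.3 CPM in HepKO. One of the 3, S100a8 (21, 29 and 8 counts in WT), passed the filter only with its HepKO counts of 134, 67 and 168. Its rise therefore adds nothing to the counts themselves. Ly6g had no count in 5 of the 6 libraries, while no macrophage or monocyte marker was at 0 in any library. Of 5 dendritic cell markers, 3 rose, with summed levels of 4.10 to 8.32 CPM in WT and 17.1 to 25.1 CPM in HepKO. Of those 3, Xcr1 (2, 10 and 15 counts in WT) passed the filter only with its HepKO counts of 68, 28 and 62. Of 6 cholangiocyte markers, 3 rose (Spp1, Sox9 and Epcam), while Krt19, Krt7 and Cldn7 were not called. The summed cholangiocyte level was 44.7 to 61.8 CPM in WT and 148 to 560 CPM in HepKO. Most of it was Spp1, with 35.1 to 54.4 CPM in WT and 134 to 515 CPM in HepKO. Of 6 T and NK cell markers 1 rose, with summed levels of 1.92 to 4.06 CPM in WT and 4.97 to 8.36 CPM in HepKO. Summed levels overlapped between the groups for sinusoidal endothelial markers (169 to 208 CPM in WT and 179 to 239 CPM in HepKO) and for B cell markers. None of the 8 endothelial markers was called, but under library totals 4 were called higher and 0 lower.

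Set against the summed length-scaled level of the 8 macrophage markers in the same library, Il1b was 0.0209, 0.0164 and 0.00709 in WT and 0.0117, 0.0127 and 0.0128 in HepKO. The HepKO ratios lay inside the range of the WT ratios (p = 0.9, exact permutation test). For Il1a the ratio was 0.0126 to 0.0190 in WT and 0.0144 to 0.0151 in HepKO, again inside the WT range. For Il1rn it was 0.0140, 0.0124 and 0.0150 in WT and 0.0179, 0.0226 and 0.0229 in HepKO, which did not overlap and was 1.53-fold higher (p = 0.1, the smallest possible, exact permutation test). For Socs3 it overlapped, with 0.00695 to 0.0340 in WT and 0.00837 to 0.0228 in HepKO. Cd5l and Clec4f weigh most in the summed level (35.7 and 26.4 RPKM in WT) and had log2FC of 1.68 and 1.09. Cd68 had a log2FC of 2.47 ± 0.27, against 2.12 ± 0.25 for Il1rn. The ratio of Il1rn to macrophage markers therefore depends on which markers are summed. All 8 hepatocyte markers fell, with a median log2FC of -1.15 and summed levels of 112043 to 133062 CPM in WT and 44139 to 55174 CPM in HepKO, in the direction of Il6ra, Il1r1 and Il1rap. Under library totals 5 of the 8 hepatocyte markers were called lower and 0 higher, at a median log2FC of -0.64. What part the cell composition had in the changes of the 10 genes was not tested.

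**Figure D3:**
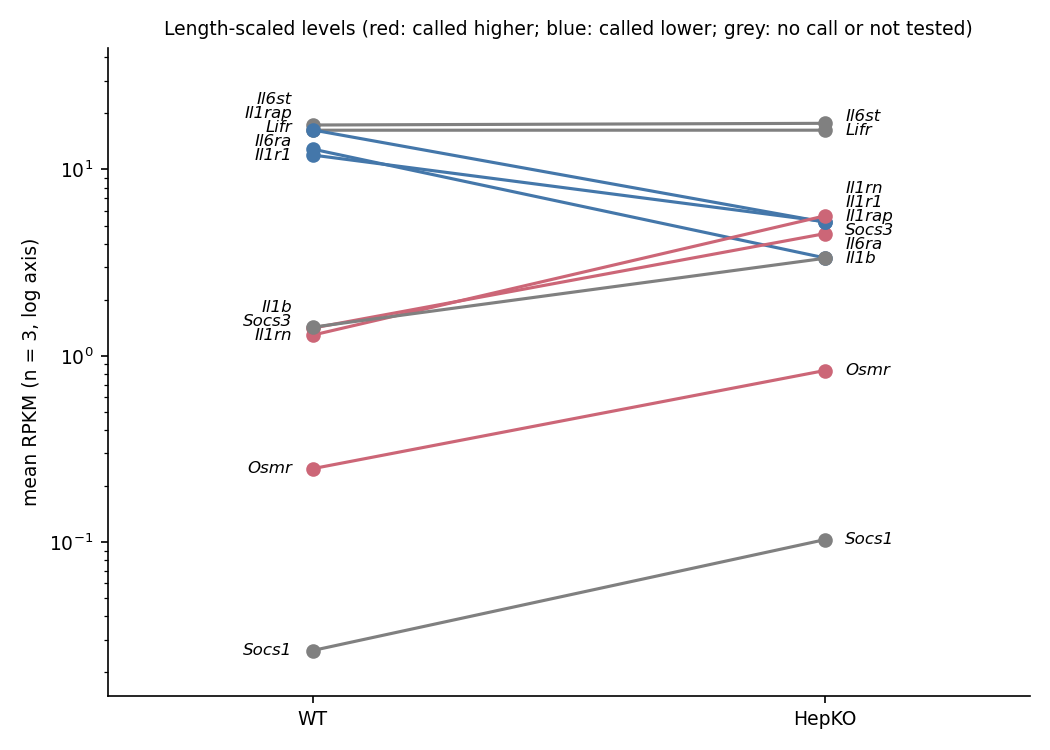
Mean length-scaled level (RPKM, log axis) of each of the 10 genes in WT and HepKO, 3 libraries each, with lines joining the groups, red for genes called higher, blue for genes called lower and grey for genes with no call or not tested. In WT the 5 abundant receptor genes lie at 12.0 RPKM or more and Il1rn at 1.29 RPKM, while in HepKO Il1rn, at 5.64 RPKM, lies beside Il1r1 and Il1rap.

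The order of the levels differed between the groups. In WT, Il6st had 17.3 ± 1.08 RPKM, followed by Il1rap (16.3 ± 1.38), Lifr (16.2 ± 4.85), Il6ra (12.9 ± 3.67) and Il1r1 (12.0 ± 3.51 RPKM). Neighbours among these 5 receptor genes differed by less than their SD. Well below them came Il1b (1.42 ± 0.827 RPKM), Socs3 (1.41 ± 0.940) and Il1rn (1.29 ± 0.352), again not separated, then Osmr (0.248 ± 0.0790) and Socs1 (0.0262 ± 0.0358 RPKM). In HepKO, Il6st (17.7 ± 2.42 RPKM) and Lifr (16.2 ± 6.62) were on top and did not differ beyond their spread. Il1rn (5.64 ± 1.39 RPKM), Il1r1 (5.25 ± 2.04), Il1rap (5.21 ± 0.956), Socs3 (4.53 ± 1.91), Il6ra (3.35 ± 0.289) and Il1b (3.34 ± 0.914 RPKM) then formed 1 stretch in which neighbours were not separated. Osmr (0.834 ± 0.198 RPKM) and Socs1 (0.103 ± 0.0534) were again lowest. Levels per length use all annotated exons of a gene, so a gene with long unused exons reads low.

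Among the other IL-6 family ligands and receptors, the ligand Lif was near 0 in WT and present in all HepKO libraries. The counts given for each list below stand against 19.5% higher and 18.7% lower over all tested genes, cover only genes that passed the low-count filter, and are descriptions of the lists. Of 14 listed genes 5 had enough counts to be tested, of which 1 rose and 1 fell (median log2FC -0.04), and under library totals 3 were called higher and 0 lower. Lif, leukaemia inhibitory factor, had 0, 6 and 0 counts in WT and 99, 102 and 104 counts in HepKO. All HepKO libraries carried similar numbers of reads, and the WT reads came from replicate 2 alone. The ratio of scaled levels was 35.6 (95% counting interval 16.2 to 97.8), and Lif was called (FDR 0.00323, edgeR). It passed the low-count filter through its HepKO counts alone, so the call adds nothing to the counts themselves. Without WT replicate 2 it was at least 45.6-fold higher, against a floor of 3 counts over the 2 remaining WT libraries. That value leaves out all WT reads of Lif, so it is not a lower bound for the WT group. Like the interval, it covers counting error only.

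Il6 had 5, 8 and 0 counts in WT and 9, 0 and 0 counts in HepKO, too few to test. Osm, which encodes oncostatin M, had 4, 1 and 3 counts in WT and 11, 8 and 14 counts in HepKO, for a ratio of 2.89 (95% counting interval 1.31 to 7.24), and was not tested. Both genes thus lay near the limit of detection in all libraries. Ctf1, the ligand cardiotrophin 1, fell (log2FC -0.72 ± 0.22, FDR 0.0323, edgeR), but was not called under library totals (log2FC -0.21, adjusted p = 0.450). Its call also ended without WT replicate 2 (adjusted p = 0.106), WT replicate 3 (0.111), HepKO replicate 2 (0.0680) or HepKO replicate 3 (0.0911). Il27ra (log2FC 1.15 ± 0.50, FDR 0.105) and Cntfr (log2FC -0.29 ± 0.35, FDR 0.550), receptors for IL-27 and ciliary neurotrophic factor, were not called by edgeR, but under library totals Il27ra was (log2FC 1.65, adjusted p = 0.0260, against 0.0802 to 0.211 with each library left out).

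Several kinases and the transcription factor Stat3 downstream of gp130 rose by small amounts. Of 20 tested JAK-STAT transducers and inhibitors, 6 rose and 1 fell (median log2FC 0.29, against 0.01 for all tested genes). With library totals 16 were called higher and 0 lower, with a median of 0.80 against 0.52. Among those that rose were the kinases Jak2 (log2FC 0.51 ± 0.11, FDR 0.00866, edgeR), Tyk2 (log2FC 0.41 ± 0.10, FDR 0.0130) and Jak1 (log2FC 0.40 ± 0.10, FDR 0.0154). Stat3 had 83.8, 78.0 and 80.9 CPM in WT and 88.9, 109 and 104 CPM in HepKO, a small rise that passed the test (log2FC 0.31 ± 0.10, FDR 0.0450, edgeR). The Stat3 call ended when any library other than HepKO replicate 1 was left out (adjusted p 0.0863 to 0.152) and without a filter (0.0975). The call of Tyk2 ended without HepKO replicate 3 (adjusted p = 0.0547), and that of Jak1 without WT replicate 1 (0.0582), WT replicate 3 (0.0537), HepKO replicate 2 (0.0520) or HepKO replicate 3 (0.0656). Without HepKO replicate 3, 1 gene of this list was called higher. Beside the genes above, the feedback inhibitor Socs2 rose (log2FC 1.23 ± 0.34, FDR 0.0244, edgeR) and its relative Socs7 was the gene that fell (log2FC -0.37 ± 0.11, FDR 0.0329). The Socs2 call ended without HepKO replicate 3 (adjusted p = 0.0830). The Socs7 call ended when any library other than WT replicate 2 was left out (adjusted p 0.0616 to 0.114), with no filter (0.0642) and with the replicate block (0.0728). Under library totals the sign of Socs7 turned (log2FC 0.15, adjusted p = 0.283, edgeR).

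Most tested genes of the IL-1 family and of inflammasome processing rose. Of 15 family ligands and receptors matched in the table, 10 were tested, of which 7 rose and 0 fell (median log2FC 1.47). Among those that rose, Il1f9, Il1r2, Il1rl2 and Il18rap passed the low-count filter only with their HepKO counts. Il1rl2 had 12, 22 and 5 counts in WT and 77, 56 and 78 in HepKO, and Il18rap 5, 11 and 6 against 86, 33 and 19. The count of 7 and the median therefore follow in part from the filter. The ligand Il1f9, which encodes IL-36 gamma and had only 8 to 10 counts in each WT library, rose from 0.284 ± 0.0579 to 3.63 ± 2.18 CPM (log2FC 3.67 ± 0.54, FDR 0.00166, edgeR). It passed the filter only with its HepKO counts of 186, 76 and 236, so the call adds nothing to the counts themselves. Il18bp, a secreted inhibitor of IL-18, rose (log2FC 1.51 ± 0.22, FDR 0.00171, edgeR), as did the alarmin Il33 (log2FC 1.16 ± 0.26, FDR 0.0104). Il1r2, the decoy receptor that binds IL-1 without signalling, also passed the filter through its HepKO counts alone and had 0, 4 and 2 counts in WT and 16, 24 and 20 counts in HepKO. Its level was 7.0-fold higher (95% counting interval 3.04 to 19.8) and it was called (FDR 0.0303, edgeR), but the call ended with no filter (adjusted p = 0.0567) and without WT replicate 1 (0.0618), WT replicate 3 (0.112), HepKO replicate 2 (0.0922) or HepKO replicate 3 (0.0831). Without WT replicate 2 the log2FC of Il1r2 was 3.72. Counts of this list called higher fell to 4 without WT replicate 1 or without WT replicate 3.

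Of 8 inflammasome and processing genes 6 rose and 0 fell (median log2FC 1.60). The inflammatory caspase Casp4 (1.49 ± 0.498 to 8.47 ± 3.93 CPM, log2FC 2.50 ± 0.40, FDR 0.00222, edgeR), the sensor Nlrp3 (log2FC 1.62 ± 0.29, FDR 0.00349), the IL-1 beta converting protease Casp1 (7.69 ± 1.88 CPM in HepKO, 2.83-fold, FDR 0.00995) and the DNA sensor Aim2 (log2FC 1.57 ± 0.36, FDR 0.0108) rose. These genes are expressed by macrophages as well, and the macrophage and monocyte markers given above were higher in the same libraries.

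Of 20 tested genes in the cascade below the IL-1 receptor, 6 rose and 4 fell (median log2FC 0.31), read against 19.5% and 18.7% of all tested genes. With library totals 14 were called higher and 0 lower, at a median of 0.82. Map3k7, which encodes the kinase TAK1, fell (log2FC -0.67 ± 0.10, FDR 0.00173, edgeR), as did Chuk, an NF-kB activating kinase (log2FC -0.64 ± 0.10, FDR 0.00237). Neither was called under library totals (adjusted p = 0.223 for Map3k7 and 0.326 for Chuk). Tnfaip3, the feedback inhibitor A20 of NF-kB, rose (log2FC 1.82 ± 0.28, FDR 0.00211, edgeR), and so did Ikbkg, the regulatory subunit of the kinase complex (log2FC 0.54 ± 0.09, FDR 0.00253). The other genes that fell were Tollip (log2FC -0.37 ± 0.08, FDR 0.0102), an adaptor that restrains the receptor complex, and the ubiquitin ligase Peli1 (log2FC -0.30 ± 0.10, FDR 0.0427). Under library totals both turned in sign without a call (log2FC 0.14 for Tollip and 0.21 for Peli1), and the Peli1 call ended whichever library was left out (adjusted p 0.0572 to 0.191). Irak3, an inhibitory kinase-like protein of the pathway, rose (log2FC 1.85 ± 0.40, FDR 0.00856), but was not called by limma-voom (adjusted p = 0.0514).

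**Figure D4:**
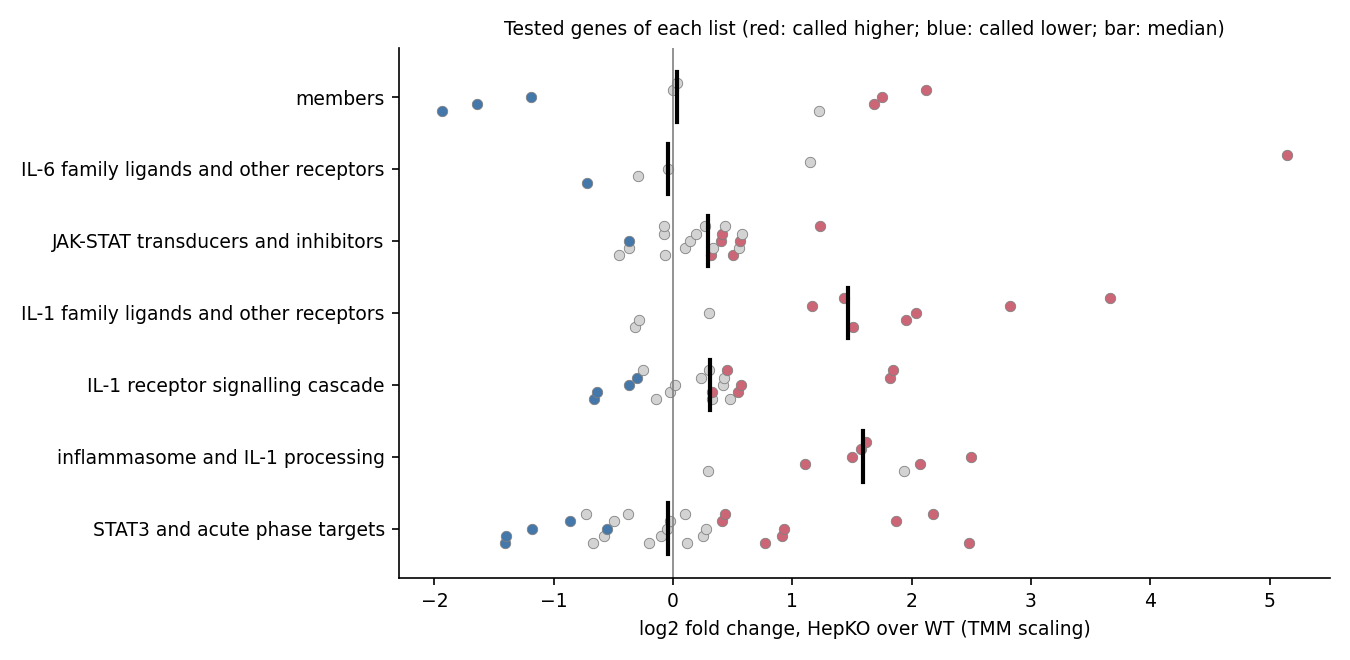
TMM-scaled log2 fold change (HepKO over WT, x axis) of each tested gene in the list of members and in 6 pathway lists, with red for genes called higher, blue for genes called lower, grey for no call and a bar at the median. The medians of the IL-1 family (1.47) and inflammasome (1.60) lists lie to the right, while the acute phase list spreads to both sides of its median of -0.04.

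Targets of STAT3 and acute phase genes did not move as a block. Of 26 tested genes, 8 rose, 5 fell and 13 were not called (median log2FC -0.04). With library totals 11 were called higher and 2 lower, at a median of 0.46. Bcl3, an NF-kB cofactor, rose from 6.02 ± 0.645 to 21.9 ± 1.89 CPM (log2FC 1.86 ± 0.13, FDR 1.35e-04, edgeR), and Lcn2, the siderophore-binding lipocalin, rose from 30.3 ± 17.6 to 169 ± 25.7 CPM (log2FC 2.48 ± 0.39, FDR 0.00223). Itih4, an inter-alpha-trypsin inhibitor heavy chain (log2FC -0.87 ± 0.14, FDR 0.00215), and the protease inhibitor Serpina3m (log2FC -1.40 ± 0.24, FDR 0.00311) fell, of which Itih4 was not called under library totals (adjusted p = 0.0580). The other 3 that fell were Crp (log2FC -0.55 ± 0.10, FDR 0.00445), Saa3 (log2FC -1.18 ± 0.25, FDR 0.00764) and Cebpb (log2FC -1.41 ± 0.33, FDR 0.0114), the gene of a transcription factor that carries IL-6 responses. Under library totals Crp (log2FC -0.04, adjusted p = 0.743) and Saa3 (log2FC -0.67, adjusted p = 0.0553) were not called. Saa1, serum amyloid A, a classic target of both cytokines, had 83.6, 138 and 77.7 CPM in WT and 46.9, 109 and 134 CPM in HepKO, with no call (log2FC -0.05 ± 0.37, FDR 0.932). Serpina3m, Saa1 and Saa3 have close copies in the genome, so how reads were split among those copies is uncertain. The list count called higher fell to 5 without WT replicate 2, WT replicate 3 or HepKO replicate 3.

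**Figure D5:**
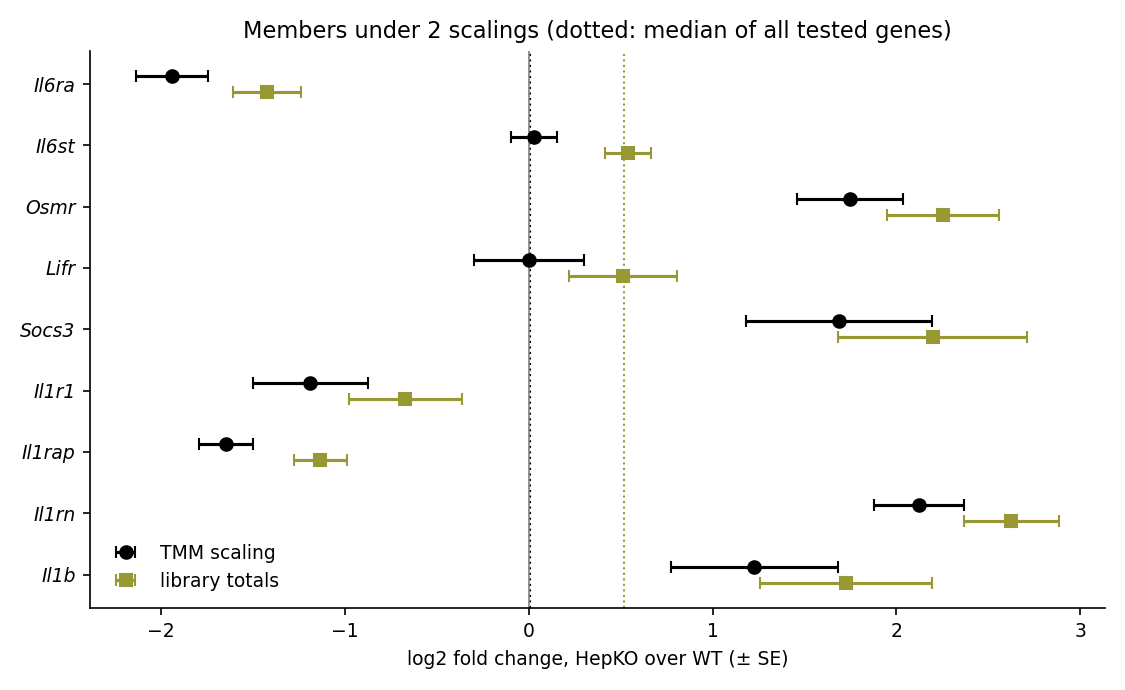
Log2 fold change (HepKO over WT, x axis) with its standard error for the 9 tested members under TMM scaling (circles) and library totals (squares), with dotted lines at the median of all tested genes, 0.01 and 0.52. Il6ra, Il1rap and Il1r1 lie below 0 and Osmr, Socs3, Il1rn and Il1b above 0 under both scalings, and Il6st and Lifr lie at the dotted median of each.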

How the data were processed

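Liver RNA of 3 WT and 3 HepKO samples was compared. The authors deposited whole-number counts of reads for each gene. The submitters' processing notes name mm10 with STAR 2.7.11a, Subread 2.0.0, featureCounts, bcl2fastq and edgeR 3.40.2. No source used here gives the annotation release or the strand of counting, so reads of overlapping or antisense genes cannot be assigned with certainty. Of 56350 IDs, 55480 matched GENCODE M21 without version. Of the listed genes, 3 were found under older symbols and Il36rn was not matched.

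Genes were filtered with filterByExpr, scaled by TMM and tested with edgeR 4.0.16 (R 4.3.3), 2-sided, with no covariate. DESeq2 1.42.0, limma 3.58.1, other scalings and filters, each library left out, a replicate block and an FDR of 0.01 were alternatives. The test was checked on simulated data. The standard error is the log2FC over the square root of F. Libraries held 33145684 to 48951937 counts, and a gene with few counts has a wide counting interval. The members and lists were chosen with earlier results of these data known. Named genes are the 10 members, Atg14, the 4 genes of smallest p in each list, and Il6, Osm, Lif, Il1a, Il1r2, Jak1 and Stat3, of which 1 is not reported here. Genes outside this rule (Gm20319, Socs2, Socs7, Tollip, Peli1, Irak3, Il1rl2, Il18rap, Crp, Saa1, Saa3 and Cebpb, and single markers) were picked with their values in view.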

Additional observations from a re-analysis of the deposited data

How the results depend on the processing

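Of the 10 genes, Il6ra, Osmr, Il1rap and Il1rn kept their direction and call under all 14 alternatives, and no gene under the naming rule lost a call by a change of sign. The number of members called higher was 3, and 5 under library totals, where Il6st and Il1b were added. Il1b was also added by DESeq2, by limma-voom and with no low-count filter, and at an FDR of 0.01 Socs3 lost its call. The number called higher was 2 to 3 when 1 library was left out. The number called lower was 3, and 2 to 3 when 1 library was left out. Il1r1 lost its call under library totals and at an FDR of 0.01. Over all genes 6131 were called, 3444 at an FDR of 0.01 and 4392 to 5588 with 1 library left out. With the replicate block 5071 genes, 2 members higher and 3 members lower were called, and Socs3 lost its call. The correlation of same-numbered deviations was -0.130, -0.0822 and 0.0111, against -0.137 to 0.194 for differently numbered libraries. No pairing by replicate number was visible, but 3 libraries per group cannot show that the samples were unpaired. At an FDR of 0.01, called genes numbered 1 higher in the JAK-STAT list (6 at 0.05), 3 in the IL-1 family list (7), 3 in the inflammasome list (6) and 4 in the acute phase list (8), and 2 lower in the IL-1 cascade (4). With the block 4 IL-1 family genes were called higher. Of 647 values of single genes under an alternative, 565 kept direction and call or stayed without a call, 72 lost the call, 7 gained one and 3 turned in sign, all under library totals (log2FC 0.15 for Socs7, 0.14 for Tollip and 0.21 for Peli1). The causes of these changes were not tested. Il6 and Osm had too few counts to enter the filtered test under any alternative, and Socs1 entered it only in 4 of the 6 cases with 1 library left out.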
